A study of Rattus norvegicus with 24 samples.

Results

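The transcriptome of the nucleus accumbens (NAc) of saline control pups at postnatal day 14 (P14) was described from 8 RNA-Seq libraries, chosen by their labels (F1S1 to F1S4 and F2S1 to F2S4) out of 24 in the series. All pups were Sprague Dawley rats. The 4 F1 SAL pups were born to dams given saline in place of oxycodone, and the 4 F2 SAL pups were offspring of saline-group F1 mothers that had themselves been given nothing. By the series description, each of the 4 pups of a group came from a separate litter, and male or female pups were taken at random, with the sex of each pup not given. The other 16 libraries, from pups of the in utero and postnatal oxycodone groups, entered no value given here. The question was which genes a young NAc expresses without the drug, at what level, and how much control pups differ from each other.

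The NAc is the ventral part of the striatum and receives dopamine from the midbrain. Most of its neurons are GABA-releasing medium spiny projection neurons, of which one class carries the D1 dopamine receptor with substance P and dynorphin, and the other carries the D2 receptor with enkephalin and the adenosine A2a receptor. The remainder are interneurons, glia and vessels, and in rats of this age myelin is still being laid down.

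Levels are in FPKM, fragments per length of transcript and per library size, as the authors deposited them. This scaling lets genes be set side by side within a library, as far as the length and fragments given to each gene are right. Variation is the coefficient of variation (CV), the SD over the mean of the 8 libraries, in percent, and n is 8 for every mean ± SD unless stated. FPKM summed to between 594928 and 666121 in a library, and 0 was the value of between 4939 and 5926 of the 23950 genes. How many reads lie behind a value is unknown, so no counting error or detection limit can be given. Genes encoded by mitochondrial DNA held 33.3% to 40.0% of the FPKM of a library. In no pair of libraries did more than 0.496% of the genes at a mean of 1 FPKM or more share the same value, so each library was counted once.

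A mean of 1 FPKM or more was found for 13719 genes, 57.3% of those listed. The count was 17909 at 0.1 or more, 6478 at 10 or more, 775 at 100 or more and 34 at 1000 or more. Another 2015 genes were listed at 0 in all 8 libraries. Of the 13719 genes, 12278 were at 1 FPKM or more in every library. The 10 highest nuclear genes held 4.17% of the nuclear FPKM, the 100 highest 19.6% and the 1000 highest 56.2%.

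Of the 30 highest genes, 16 were mitochondrial. Mt-atp6, a subunit of ATP synthase, was the highest at 37290.4 ± 3050.4 FPKM, followed by the cytochrome oxidase subunit Mt-co3 at 26263 ± 2302 FPKM. The other 14 were nuclear and were led by Cst3 (cystatin C, a secreted protease inhibitor), with 1894 to 2899.6 (median 2078) FPKM and a mean of 2287 ± 400.4 FPKM. Tuba1a, the alpha tubulin of growing neurons, followed at 1911 ± 225 FPKM. The actin-binding thymosin Tmsb4x was at 1899.8 ± 409.7 FPKM, the ribosomal protein gene Rpl41 at 1723 ± 345 FPKM and Actb, cytoplasmic actin, at 1687 ± 175 FPKM. These 14 genes included cytoskeletal genes (Tuba1a, Tuba1b, Actb, Tmsb4x, Tmsb10), ribosomal or ubiquitin genes (Rpl41, LOC108352650, Ubb) and secreted astrocyte and neuron products (Cst3, Apoe). The rest were the cytochrome oxidase gene Cox6a1, the vacuolar proton pump gene Atp6v0c, the neuronal metallothionein Mt3 and the imprinted gene Nnat. Apoe, the lipid carrier made by astrocytes, was at 1543 ± 251 FPKM, and Nnat at 1427 ± 262 FPKM. Among the 100 highest nuclear genes, 21 carried the term for a structural part of the ribosome and 15 the term for the myelin sheath, against 2.65% and 1.36% of all nuclear genes at 1 FPKM or more. The myelin sheath term also holds tubulins and mitochondrial enzymes, and Mbp, myelin basic protein, was its seventh highest gene at 815 ± 246 FPKM.

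The projection neuron genes Ppp1r1b, Penk, Drd2 and Adora2a were the markers given for the NAc, and all 4 were present in each library. No other region was compared, so their presence does not separate the NAc from the rest of the striatum. Ppp1r1b (ENSRNOG00000028404), which encodes the dopamine-regulated phosphatase inhibitor DARPP-32, was at 207 to 549 (median 424) FPKM, and its mean of 414 ± 103 FPKM made it the 120th highest nuclear gene. Penk (ENSRNOG00000008943), the enkephalin precursor, was at 116 to 322 (median 240.2), with a mean of 219 ± 65.7 FPKM. Adora2a (ENSRNOG00000001302), the A2a receptor, was at 30.3 to 101 (median 62.1), with a mean of 61.9 ± 20.1 FPKM. Drd2 (ENSRNOG00000008428), the D2 dopamine receptor, was at 19.2 to 69.2 (median 39.2), with a mean of 38.6 ± 15.2 FPKM. All 4 genes were lowest in F1 SAL 1 and highest in F1 SAL 3, and the F1 and F2 values overlapped. The CVs were 24.97% for Ppp1r1b, 30.02% for Penk, 32.5% for Adora2a and 39.3% for Drd2. Without F1 SAL 1, the CV of Ppp1r1b was 14.7%. In bulk tissue, fewer cells of a type and less RNA per cell cannot be told apart.

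**Figure D1:**
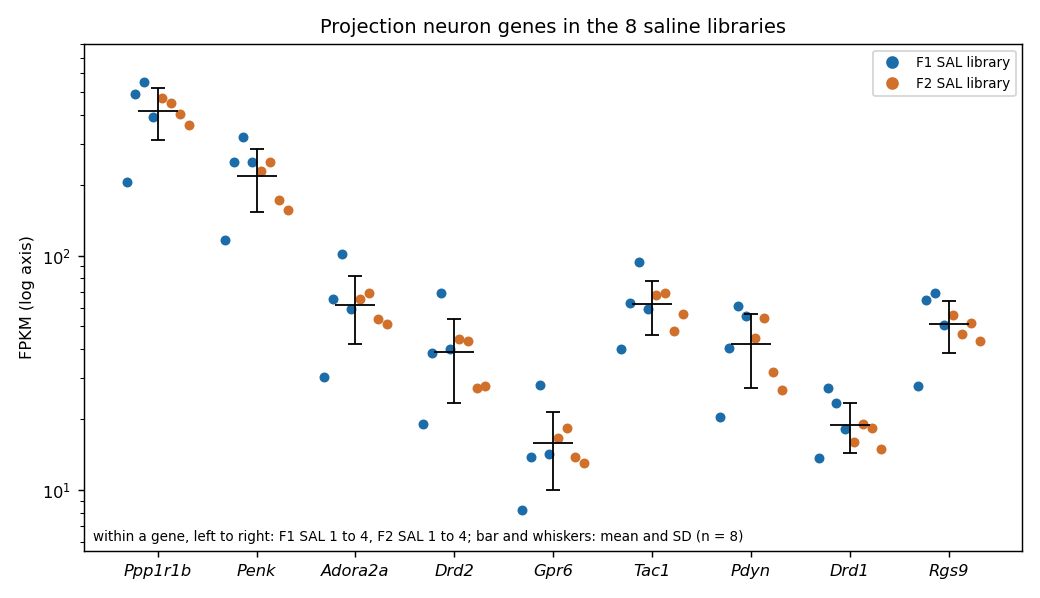
FPKM (vertical log axis) of 9 projection neuron genes in each of the 8 saline libraries, F1 SAL in blue and F2 SAL in orange, in the order 1 to 4 of each group, with bars for the mean and whiskers for the SD. For Ppp1r1b the points run from 207 in F1 SAL 1 to 549 in F1 SAL 3, and the F1 and F2 points overlap for every gene shown.

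Of 14 genes shared by both projection neuron classes, all had a mean above 1 FPKM and 13 were at 10 or more. Gng7 and Gnal, the G protein subunits that couple striatal receptors to cyclase, were at 209 ± 53.5 FPKM and 85.5 ± 15.3 FPKM. The cyclase Adcy5 was at 62.7 ± 10.6 FPKM, and the phosphodiesterases Pde1b and Pde10a at 93.6 ± 15.1 FPKM and 22.5 ± 5.99 FPKM. The cAMP-regulated phosphoprotein Arpp21 was at 103 ± 20.5 FPKM, the G protein regulator Rgs9 at 51.2 ± 12.9 FPKM and the small G protein Rasd2 at 52.1 ± 8.31 FPKM. The summed level of the 14 genes ran from 797 in F1 SAL 1 to 1684 in F1 SAL 3. Their median CV was 25.3%, against 16.7% for all genes at 1 FPKM or more.

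Genes of both projection neuron classes were compared within each library. Drd1, the D1 receptor, was at 13.8 to 27.2 (median 18.3) FPKM, and Drd2 exceeded it in 8 of 8 libraries, by 0.96 ± 0.15 (mean ± SE) on the log2(FPKM + 0.1) scale, on which all paired genes were compared. Penk exceeded Tac1, the substance P precursor, in 8 of 8 libraries, by 1.79 ± 0.07. Tac1 had a mean of 62.1 ± 16.1 FPKM and exceeded Pdyn, the dynorphin precursor at 41.8 ± 14.6 FPKM, in 8 of 8 libraries, by 0.62 ± 0.11. Each of these differences had p = 0.00781, the smallest that exact sign flips of 8 libraries allow, and an adjusted p of 0.00905 over 22 gene pairs. The sign flips measure the spread between libraries, so an error in a gene's FPKM that is alike in all 8 would not raise p. This holds for all 22 pairs. Whether the order came from such an error, the number of cells of each class or the RNA of each cell was not tested. Chrm4, the muscarinic receptor of D1 neurons, was at 18.1 ± 3.16 FPKM, and the transcription factors Isl1 and Ebf1 of that class at 5.76 ± 1.63 FPKM and 2.52 ± 0.696 FPKM. Among the D2 class genes, the orphan receptor Gpr6 was at 15.8 ± 5.79 FPKM, Gpr52 at 3.78 ± 1.03 FPKM and the transcription factor Sp9 at 9.15 ± 2.99 FPKM. Sfxn1, a mitochondrial serine transporter in the D1 list, had the smallest CV of the list (9.27%) and was highest in F1 SAL 1, where Drd1, Tac1 and Pdyn were lowest.

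The windows around the gene starts in the RefSeq table, of build GRCr8, run from 250 bases before the start to 50 after it. The genome build behind the deposited values is not given in the sources used here, so windows were matched to genes by symbol only, which was possible for 12788 genes. The hexamer GGGCGG, the core of the GC box, was found on either strand in 64.0% of the windows of genes at a mean of 1 FPKM or more, in 21.1% of those of genes under 0.1 and in 34.9% of all 27457 windows of the table. The hexamer TATAAA was found in 6.25% of the windows at 1 FPKM or more, in 18.9% of those under 0.1, in 9.67% of those at 100 or more and in 14.3% of all windows. The pentamer CCAAT differed little between these sets, with 37.4% at 1 FPKM or more, 37.9% under 0.1 and 37.7% of all windows. The median ratio of observed to expected CpG dinucleotides was 0.774 at 1 FPKM or more and 0.259 under 0.1. The sequences show the 150 bases before the start, 5′ to 3′ on the strand of the gene, for a pair of dopamine receptor genes, a neuropeptide precursor, the highest nuclear gene and the gene with the smallest CV, with matches to these 3 motifs in capitals. Drd2 (chr8:58605253-58605402, plus strand) held GGGCGG once on each strand. Pdyn (chr3:137366504-137366653, minus strand) held TATAAA from base -13 to -8 relative to the start and CCAAT on the opposite strand. Drd1 (chr17:10546454-10546603, plus strand) held none of the 3. Cst3 (chr3:156793938-156794087, minus strand) held 1 GGGCGG, and Pigt (chr3:173646960-173647109, plus strand) 1 CCAAT on the opposite strand. A match is a description of these letters and not a binding site. The starts are those of the RefSeq table and were not checked in this tissue. A window without a match, as for Drd1, therefore does not show that the promoter in use lacks the motifs.
Drd2: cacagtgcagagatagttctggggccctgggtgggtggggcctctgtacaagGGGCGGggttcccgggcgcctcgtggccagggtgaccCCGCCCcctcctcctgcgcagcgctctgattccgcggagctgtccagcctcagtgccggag
Pdyn: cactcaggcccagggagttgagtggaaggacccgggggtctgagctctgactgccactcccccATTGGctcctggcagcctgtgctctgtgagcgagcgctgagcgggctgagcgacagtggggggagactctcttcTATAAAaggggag
Drd1: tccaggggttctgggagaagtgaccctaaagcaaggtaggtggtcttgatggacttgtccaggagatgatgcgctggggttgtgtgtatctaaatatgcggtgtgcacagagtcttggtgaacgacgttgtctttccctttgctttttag
Cst3: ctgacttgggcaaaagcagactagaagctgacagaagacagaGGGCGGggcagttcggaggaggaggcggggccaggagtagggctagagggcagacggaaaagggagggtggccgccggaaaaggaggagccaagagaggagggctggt
Pigt: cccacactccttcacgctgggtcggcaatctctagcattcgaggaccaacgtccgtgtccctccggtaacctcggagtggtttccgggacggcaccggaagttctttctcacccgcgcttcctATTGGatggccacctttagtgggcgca

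Transcription factors at 1 FPKM or more had a median level of 5.604 FPKM, against 9.07 FPKM for all genes at 1 FPKM or more. Of 686 genes with the term for DNA-binding transcription factor activity, 462 had a mean of 1 FPKM or more and 5 of 100 or more, against 13719 and 775 of all 23950 genes, and the highest of them, the thyroid hormone receptor gene Thra, was the 288th highest nuclear gene. Thra was at 185 to 253 (median 230.4) FPKM, with a mean of 229 ± 24.4 FPKM. It was followed by Tcf25 (145 ± 10.5), AABR07006627.1 (142 ± 19.3), Scand1 (139 ± 33.0), the Wnt effector Ctnnb1 (119 ± 8.76) and Tsc22d1 (96.7 ± 8.81), in FPKM. Atf4, Cnbp, Jund and Ctbp1 completed the 10 highest, at means between 78.0 and 95.5 FPKM. Of these 10 genes, 6 varied by a CV of 10.7% or less.

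The transcription factors that pattern the striatum lay below them. Of 20 found by symbol, 18 were at 1 FPKM or more and 9 at 10 or more. Meis2 was the highest at 66.9 ± 20.7 FPKM, then Foxp1 at 28.6 ± 7.44 FPKM, Rxrg at 26.0 ± 13.1 FPKM, Dlx5 at 21.7 ± 4.797 FPKM, Foxp4 at 21.0 ± 3.74 FPKM and Tshz1 at 20.8 ± 3.58 FPKM. Foxp1 exceeded its paralog Foxp2 (9.03 ± 1.94 FPKM) in 8 of 8 libraries, by 1.64 ± 0.14 on the log2(FPKM + 0.1) scale (exact sign flips, adjusted p = 0.00905). Dlx1 and Dlx2, which act early in forebrain GABA neurons, were at 14.1 ± 6.78 FPKM and 12.6 ± 5.34 FPKM and were both highest in F1 SAL 3 (29.3 and 23.5). Ikzf1 and Gsx2 had means of 0.740 and 0.790 FPKM. Bcl11b, the projection neuron factor CTIP2, did not behave as a single level: it was between 1.07 and 1.67 FPKM in 5 libraries, and at 24.1 in F1 SAL 2, 26.0 in F1 SAL 4 and 17.2 in F2 SAL 4. The other 13 shared projection neuron genes varied by a CV of 30.9% at most, against 120.4% for Bcl11b.

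Immediate early genes, which neurons switch on with activity, were present at low to moderate levels. All 11 had a mean above 1 FPKM, and Egr1 was the highest at 61.6 ± 16.4 FPKM, with 40.1 to 80.7 (median 62.4). Junb was at 21.6 ± 7.46 FPKM, Arc at 20.5 ± 6.55 FPKM, Egr4 at 18.5 ± 5.55 FPKM, Nr4a1 at 15.7 ± 5.46 FPKM and Fos at 8.90 ± 1.77 FPKM. Npas4 (3.06 ± 1.25 FPKM), Egr2 (2.84 ± 1.68) and Fosb (2.32 ± 0.783) were the lowest 3. The median CV of the list was 32.0%, with the summed level lowest in F2 SAL 4 (129) and highest in F1 SAL 4 (239).

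Of 102 genes with a GO term for neuropeptide hormones or signaling, 53 were at 1 FPKM or more, with a median level among those of 4.51 FPKM. Among all genes, 57.3% were at 1 FPKM or more, with a median level of 9.07 FPKM. The listed peptide precursors and granule proteins, 17 in all, were each at 1 FPKM or more. Pcsk1n, an inhibitor of the prohormone convertase, was at 354 ± 76.9 FPKM, and the granins Chgb and Chga at 157 ± 18.3 FPKM and 155 ± 21.3 FPKM. Sst, the somatostatin precursor of a class of interneurons, was at 249 to 462 (median 301) FPKM, with a mean of 323 ± 69.2 FPKM. Cck (102 ± 52.0 FPKM), Npy (70.7 ± 15.1), Cartpt (67.4 ± 19.8) and Nts (20.2 ± 5.37) followed. Cck was the least even of these, from 10.4 in F1 SAL 3 to 178 FPKM in F1 SAL 4. The summed cortical excitatory genes, described below, were also lowest in F1 SAL 3 (8.03) and highest in F1 SAL 4 (327). Whether cortical tissue contributed to the level of Cck was not tested. Vip (2.79 ± 1.56 FPKM), Crh (3.80 ± 1.61), Adcyap1 (3.81 ± 1.62) and Grp (4.42 ± 2.08) were near the floor of the list.

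Receptor genes were described by family. Among all genes, 57.3% had a mean of 1 FPKM or more and 27.0% a mean of 10 or more. Of 383 genes with the term for G protein-coupled receptor activity, 100 and 30 reached these levels. Gabbr1, which binds GABA in the GABA-B receptor, was the highest at 187 ± 14.8 FPKM. Next were the adhesion receptor Adgrb2 (96.5 ± 12.7 FPKM), AABR07058422.1 (91.6 ± 10.3), which the file describes as a Bai1 protein, Adgrl1 (86.4 ± 10.9), the astrocyte receptor Gpr37l1 (80.8 ± 12.9), Adgrg1 (72.1 ± 9.51) and Gpr162 (53.7 ± 8.91). Gpr17 of maturing oligodendrocytes (48.5 ± 5.01) and Drd2 were also among the 10 highest. Adora2a, at 61.9 FPKM, carried a narrower adenosine receptor term in place of this one and would have stood among them.

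Among dopamine receptors, Drd2 and Drd1 were followed by Drd5 at 1.08 ± 0.419 FPKM, Drd3 at 0.388 ± 0.243 FPKM and Drd4, which was listed at 0 in 7 of 8 libraries. Opioid receptors were low. The nociceptin receptor Oprl1 was the highest at 7.37 ± 0.982 FPKM, the kappa receptor Oprk1 was at 2.03 ± 0.593 FPKM, the delta receptor Oprd1 at 0.928 ± 0.409 FPKM and the mu receptor Oprm1 at 0.159 ± 0.129 FPKM. Oprm1, the main target of oxycodone, was at 0.0300 to 0.460 (median 0.140) FPKM. Oprk1 exceeded Oprd1 by 1.09 ± 0.17, and the log2 ratio of Oprm1 over Oprk1 was -3.11 ± 0.23, each with the same sign in 8 of 8 libraries on the log2(FPKM + 0.1) scale (exact sign flips, adjusted p = 0.00905). With a pseudocount of 1 the latter ratio was -1.37, since Oprm1 lay near the pseudocount of 0.1. Read counts are absent, so the low level of Oprm1 carries an unknown counting error. The opioid peptide precursors Penk, at 219 FPKM, and Pdyn, at 41.8 FPKM, stood above these receptor genes. Levels of other opioid peptide precursors are not given here.

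Adora2a exceeded Adora1 (26.0 ± 5.25 FPKM) in 8 of 8 libraries, by 1.20 ± 0.23, and Chrm1 (28.2 ± 5.06) exceeded Chrm4, the log2 ratio of Chrm4 over Chrm1 being -0.64 ± 0.10 (exact sign flips, adjusted p = 0.00905 for both). The cannabinoid receptor Cnr1 was at 16.8 ± 4.20 FPKM, Cnr2 at 0.413 ± 0.125 FPKM and Gpr55 at 0.0438 ± 0.0487 FPKM. Among 12 serotonin receptors, Htr2c was the highest at 27.3 ± 7.21 FPKM and Htr1b next at 9.91 ± 1.61 FPKM. Htr6, Htr5a and Htr3a, at 6.93 ± 1.14, 6.47 ± 1.37 and 5.54 ± 1.79 FPKM, followed in that order, each differing from the one before it by less than its own SD among these 3. The nicotinic subunits Chrnb2 and Chrna4 were at 17.6 ± 2.63 FPKM and 16.9 ± 6.57 FPKM, and 5 of 11 nicotinic genes had means under 1 FPKM. The melanin-concentrating hormone receptor Mchr1 was at 17.6 ± 2.43 FPKM, and the orexin receptors Hcrtr1 and Hcrtr2 at 2.62 ± 1.01 FPKM and 0.839 ± 0.250 FPKM. Among steroid receptors, the mineralocorticoid receptor Nr3c2 was at 3.98 ± 0.512 FPKM and Esr1 at 0.191 ± 0.112 FPKM.

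**Figure D2:**
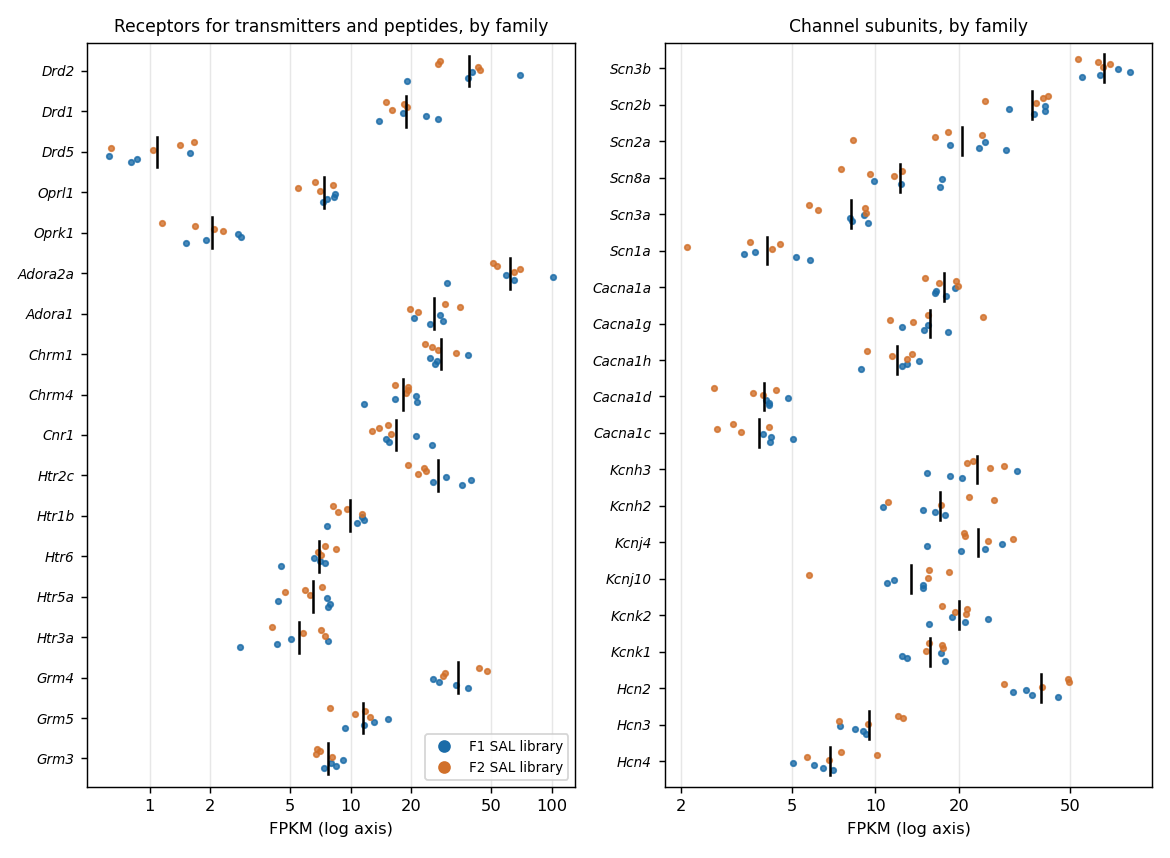
FPKM (horizontal log axis) of receptor genes (left) and channel subunits (right) named in the text, with 1 point for each library (F1 SAL blue, F2 SAL orange) and a black line at the mean of 8. Adora2a at 61.9, Drd2 at 38.6 and Scn3b at 66.0 FPKM lead their families.

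Ionotropic glutamate receptors were led by the obligatory NMDA subunit Grin1 at 112 to 140.0 (median 124) FPKM, a mean of 127 ± 10.4 FPKM. The other NMDA subunits were lower, with Grin2c at 13.2 ± 1.77 FPKM, Grin2d at 10.1 ± 3.76 FPKM, Grin2b at 5.04 ± 1.32 FPKM and Grin2a at 1.76 ± 0.810 FPKM. Grin2b, the subunit of early life, exceeded Grin2a in 8 of 8 libraries, by 1.55 ± 0.24 (adjusted p = 0.00905, exact sign flips). The AMPA subunits Gria2 (29.1 ± 12.7 FPKM) and Gria1 (29.0 ± 4.86) could not be ordered: Gria2 was higher in 3 libraries and lower in 5, with a log2 ratio of -0.08 ± 0.21 (exact p = 0.703, adjusted p = 0.703). Gria3 was at 19.9 ± 6.49 FPKM and Gria4 at 8.07 ± 1.63 FPKM. Grik5, a kainate subunit, was at 74.1 ± 7.19 FPKM, while the other 4 kainate genes were between 5.65 and 9.67 FPKM. Of the metabotropic receptors, Grm4 was the highest at 34.2 ± 8.03 FPKM, and Grm5 (11.5 ± 2.28 FPKM) exceeded Grm3 (7.69 ± 0.869) in 8 of 8 libraries, by 0.56 ± 0.07 (exact sign flips, adjusted p = 0.00905).

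Of 14 GABA-A subunit genes, 13 were at 1 FPKM or more, and Gabra6 was at 0.0263 ± 0.0437 FPKM. The extrasynaptic subunit Gabrd was at 25.4 ± 5.06 FPKM, Gabra4 at 17.7 ± 3.17 FPKM, Gabra2 at 12.7 ± 2.23 FPKM and Gabrb2 at 4.77 ± 1.43 FPKM. Glycine receptor genes were led by the beta subunit Glrb at 29.7 ± 6.70 FPKM, with Glra2 at 9.74 ± 1.05 FPKM and Glra1 and Glra3 under 1 FPKM in every library.

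The term used for channel activity took in many proteins that are not channel subunits. Its 10 highest genes were Calm3, Tomm7, Grina, Fkbp1a, Fxyd7, Ttyh1, Tomm20, Gpm6a, Vdac3 and Slc17a7, between 144 and 717 FPKM, among them calmodulin, parts of the mitochondrial import pore and a vesicular transporter. Channels were therefore also described by family.

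Among sodium channels, the beta subunits Scn3b (66.0 ± 9.55 FPKM) and Scn2b (36.6 ± 6.01) stood above the pore-forming subunits. Of the latter, Scn2a was the highest at 20.4 ± 6.49 FPKM, then Scn8a at 12.2 ± 3.44 FPKM, Scn3a at 8.15 ± 1.41 FPKM and Scn1a at 4.07 ± 1.16 FPKM. Scn2a exceeded Scn1a in 8 of 8 libraries, by 2.27 ± 0.21 (exact sign flips, adjusted p = 0.00905), and Scn3a in 7 of 8, by 1.25 ± 0.21 (adjusted p = 0.0172). Of the calcium channels, Cacna1a of P/Q-type currents was at 17.6 ± 1.76 FPKM, the T-type genes Cacna1g and Cacna1h at 15.7 ± 4.07 FPKM and 11.99 ± 1.96 FPKM, and the L-type genes Cacna1c and Cacna1d at 3.83 ± 0.761 FPKM and 3.97 ± 0.647 FPKM. Cacna1f and Cacna1s of retina and muscle had means of 0.0438 and 0.0775 FPKM.

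Of 24 voltage-gated potassium channel subunits, 20 were at 1 FPKM or more and 9 at 10 or more, against 57.3% and 27.0% of all genes, among them Kcnh3 (23.1 ± 5.56 FPKM) and Kcnh2 (17.02 ± 5.31). Kcnj4, an inward rectifier of medium spiny neurons, was at 23.4 ± 5.07 FPKM, and the glial rectifier Kcnj10 at 13.4 ± 3.86 FPKM. The two-pore genes Kcnk2 and Kcnk1 were at 19.99 ± 2.96 FPKM and 15.8 ± 2.12 FPKM. Hcn2 was at 39.4 ± 7.96 FPKM, above Hcn3 (9.45 ± 1.92 FPKM) and Hcn4 (6.84 ± 1.54).

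Genes of GABA transmission varied less between libraries than those of glutamate release, with CVs of 16.1% for Gad1, 19.8% for Gad2 and 21.98% for Slc32a1 against 59.7% for Slc17a7 and 79.9% for Slc17a6. The vesicular GABA transporter Slc32a1 was at 74.1 to 167 (median 127) FPKM. The GABA-synthesizing enzymes Gad2 and Gad1 were at 97.8 ± 19.4 FPKM and 64.3 ± 10.4 FPKM, with Gad2 higher in 8 of 8 libraries (log2 ratio of Gad1 over Gad2 -0.60 ± 0.05). The chloride exporter Slc12a5 (41.3 ± 6.15 FPKM) exceeded the importer Slc12a2 (8.46 ± 2.24) in 8 of 8 libraries, by 2.30 ± 0.15 (exact sign flips, adjusted p = 0.00905 for both orders). Slc17a7, the vesicular glutamate transporter of cortical neurons, had 3.94 to 271 (median 147) FPKM, and Slc17a6, that of thalamic neurons, had 2.76 to 41.0 (median 17.2). Slc17a7 exceeded Slc17a6 in 7 of 8 libraries, by 2.80 ± 0.89 (exact sign flips, adjusted p = 0.0246), and was below it in F1 SAL 3.

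Glial genes were present in every library. Of 8 astrocyte genes, with a median CV of 13.3%, the brain aldolase Aldoc was the highest at 429 ± 66.8 FPKM, and the glutamate transporter Slc1a3 was at 138 ± 9.70 FPKM, with CVs of 7.02% for Slc1a3 and 7.02% for the gap junction gene Gja1 (91.8 ± 6.44 FPKM). Slc1a3 exceeded Slc1a2 (81.7 ± 26.6), the transporter that dominates later in life, in 8 of 8 libraries (log2 ratio of Slc1a2 over Slc1a3 -0.82 ± 0.16). The summed astrocyte level ran from 784 to 1016 FPKM. The myelin genes had a median CV of 28.4%, with Mbp at 405 to 1226 (median 848) FPKM. Their list summed to 927 in F1 SAL 4 and to 2453 in F2 SAL 4. Precursor genes were present beside them, with Olig1 at 80.9 ± 20.3 FPKM, Bcas1 at 69.2 ± 9.07 FPKM and Pdgfra at 15.3 ± 1.71 FPKM, and the myelin gene Mag exceeded Pdgfra by 2.99 ± 0.16 (exact sign flips, adjusted p = 0.00905 for both orders).

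Of the 8 microglial genes found by symbol, all were above 1 FPKM, with C1qb at 49.6 ± 11.96 FPKM, C1qa at 42.8 ± 11.4 FPKM, Csf1r at 26.6 ± 1.83 FPKM and Cx3cr1 at 24.7 ± 3.82 FPKM. Vessel genes included Slc2a1, the glucose transporter of the blood-brain barrier, at 38.4 ± 7.71 FPKM, Cdh5 at 8.23 ± 0.870 FPKM and the pericyte gene Rgs5 at 33.3 ± 2.71 FPKM. The interneuron genes Calb2 (104 ± 30.3 FPKM) and Pvalb (18.1 ± 9.22) were accompanied by the cholinergic genes Chat (2.95 ± 1.79), Slc18a3 (6.24 ± 3.10) and Slc5a7 (3.36 ± 1.99). Immature neuron genes were led by Tubb3 at 506 ± 113 FPKM, with Dcx at 8.54 ± 2.28 FPKM and the proliferation gene Mki67 at 1.92 ± 0.632 FPKM.

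Markers of neighboring tissues were unequal between the control libraries. Ttr, the transthyretin gene of the choroid plexus, was at 5121 FPKM in F1 SAL 1, 77.3 in F2 SAL 3 and 8.01 or less in the other 6. The other 7 choroid plexus genes were also highest in F1 SAL 1, and the list summed to 5204 there and to between 5.70 and 84.2 elsewhere. The highest sum was 913 times the lowest over 8 libraries and 14.8 times without F1 SAL 1. Cortical excitatory genes, led by Slc17a7, summed to 8.03 in F1 SAL 3 and to 327 in F1 SAL 4, with all 6 members at a CV above 50%. Thalamic genes, led by the transcription factor Tcf7l2, summed to 173 in F2 SAL 3, 147 in F1 SAL 1 and 132 in F2 SAL 4, and to 17.5 at the lowest. Hypothalamic genes, mainly the hormones Avp and Oxt, summed to 264 in F2 SAL 4, 149 in F2 SAL 3 and 9.70 at the lowest. Septal Zic genes ran from 16.3 to 72.7, meningeal genes from 28.5 to 105 and blood genes from 9.65 to 61.2 FPKM. The library with the lowest cortical sum, F1 SAL 3, had the highest sum of projection neuron genes, and F1 SAL 1, with the highest choroid plexus and meningeal sums, had the lowest. The part of other tissues in the spread of any NAc gene was not tested.

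**Figure D3:**
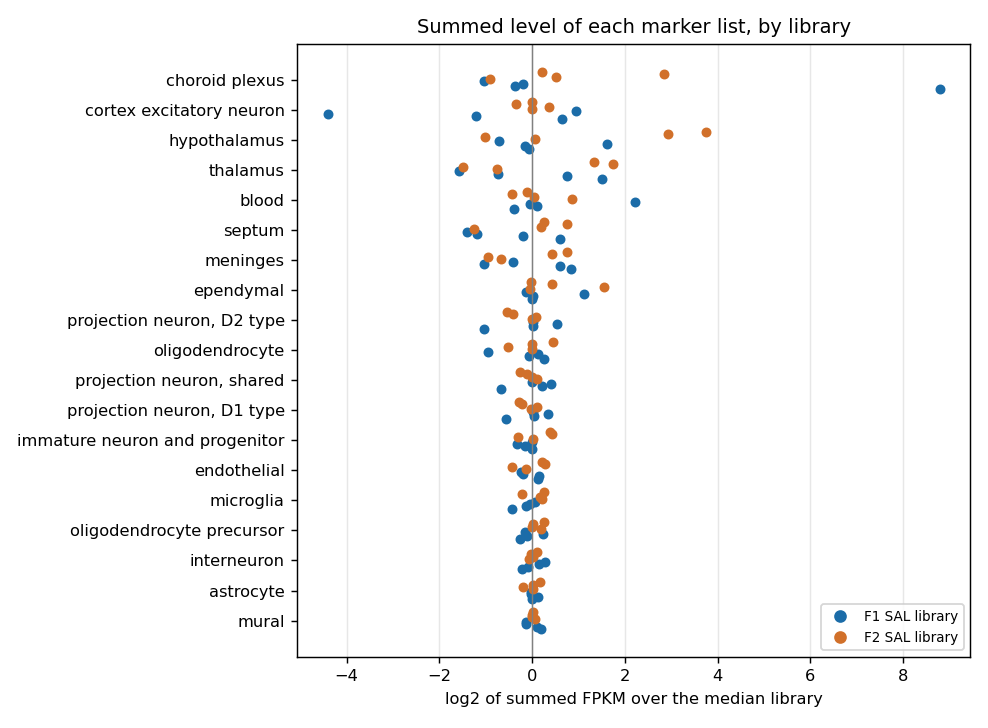
Summed FPKM of each marker list in each library, as log2 over the median library (horizontal axis), with lists ordered by their spread, F1 SAL in blue and F2 SAL in orange. Astrocyte and mural lists stay near 0, while the choroid plexus sum of F1 SAL 1 (5204 FPKM) and the cortical sum of F1 SAL 3 (8.03) stand farthest from the others.

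**Figure D4:**
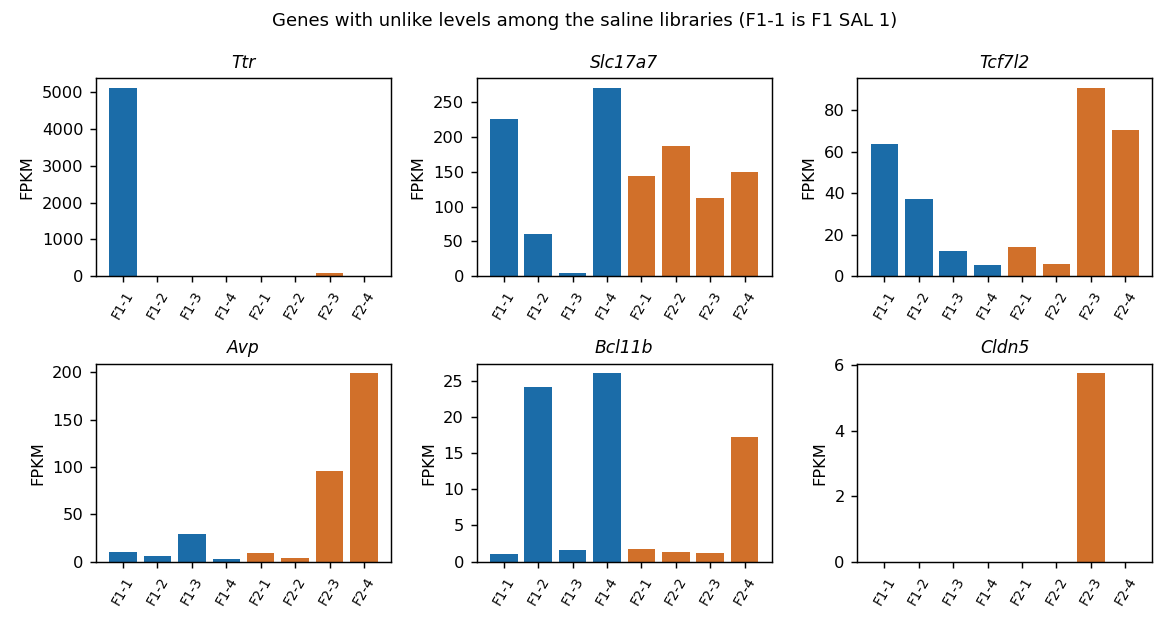
FPKM (vertical axis from 0) of 6 genes in each of the 8 saline libraries, F1 SAL in blue and F2 SAL in orange. Each gene is high in a different set of libraries, for example Ttr in F1 SAL 1 (5121) and Bcl11b in F1 SAL 2, F1 SAL 4 and F2 SAL 4 (17.2 or more).

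Most genes varied far less than these. The median CV was 16.7% over the 13719 genes at a mean of 1 FPKM or more, with 20.9% at 1 to 10 FPKM, 13.1% at 10 to 100, 14.3% at 100 to 1000 and 13.3% above. It was 65.0% for genes between 0.1 and 1 FPKM. A CV of 50% or more was found for 722 genes at 1 FPKM or more (5.26%), and for 109 of the 6478 genes at 10 or more. Of those 109, 29 were highest in F2 SAL 2 and 7 to 16 in each of the other libraries.

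Gene classes named by the GO terms of the files differed in their median CV at 1 FPKM or more. The value was 14.4% for 186 myelin sheath genes, 17.3% for 462 transcription factors, 18.1% for 272 synapse genes, 19.7% for 100 G protein-coupled receptors, 20.2% for 333 genes with a channel term, 23.5% for 363 ribosomal protein genes and 31.5% for 53 neuropeptide genes. A CV of 50% or more was found for 3 of the 186 myelin sheath genes, 48 of the 363 ribosomal and 12 of the 53 neuropeptide genes. Many ribosomal genes have near-identical copies, between which a count of fragments is uncertain.

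The smallest CV at a mean of 10 FPKM or more was that of Pigt, a subunit of the complex that attaches GPI anchors, with 84.3 to 88.4 (median 86.6) FPKM and a CV of 1.89%. Pdzd11 (2.48%), the thioredoxin reductase Txnrd1 (2.55%), the actin nucleation subunit Arpc2 (2.59%), the sulfatase Sulf2 (2.68%), Pabpc4 (2.85%), the Mediator subunit Med15 (2.88%), Bcl2l1 (3.34%), Anapc5 (3.37%) and Tacc1 (3.53%) followed. None of these 10 was on the list of 14 reference genes for RT-PCR. Of those 14, Ppia (1030.3 ± 81.5 FPKM, CV 7.91%) varied least and Hprt1 most (32.3%), with Gapdh at 9.82%. Actb had a CV of 10.4%, with 1321 to 1829.9 (median 1752) FPKM. The windows of the 500 genes with the smallest CV at 10 FPKM or more held TATAAA in 5% of cases, and those of the 500 with the largest CV in 9.4%. All 4751 windows at 10 FPKM or more held it in 6.36%. The sets were not matched for level, and a link between the motif and variation was not tested.

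The 10 largest CVs at that level belonged to Ttr (277%), AABR07063462.1 (275%), AABR07037925.1 (170.4%), Avp (157%), LOC103693564 (146%), AC111734.1 (146%), AABR07072283.1 (144%), AABR07061378.1 (139%), a gene of the RNA family RF00017 (ENSRNOG00000055825, 138%) and Enpp2 (122%). Enpp2, autotaxin, which the choroid plexus secretes, was at 109 FPKM in F1 SAL 1 and 22.3 or less in the other 7. Without F1 SAL 1 its CV was 31.5%, and that of Ttr 192%. AABR07063462.1 was at 105 FPKM in F2 SAL 3 and 0.770 or less in the other 7. Without F2 SAL 3, the CV of AABR07063462.1 was 76.8%, that of AABR07037925.1 79.4% and that of AABR07072283.1 85.0%.

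**Figure D5:**
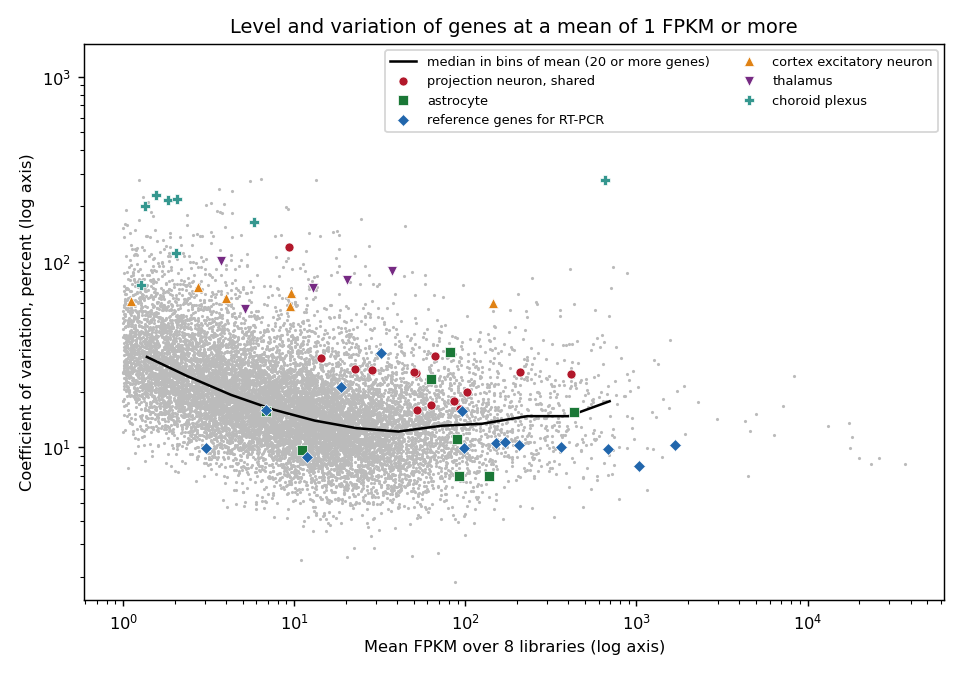
CV (vertical log axis, percent) against mean FPKM (horizontal log axis) of the 13719 genes at a mean of 1 FPKM or more, with a line for the median in bins of level and symbols for 6 gene lists. Most reference genes lie under the line (Ppia at 7.91%) with Hprt1 above it (32.3%), the shared projection neuron genes lie above it, and choroid plexus, thalamic and cortical genes at CVs over 50%.

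In all, 96 genes at a mean of 1 FPKM or more were listed at 0 in at least 1 library and stood at 5 FPKM or more in another. Romo1, a small mitochondrial membrane protein, was listed at 0 in F1 SAL 3 and F1 SAL 4 and at 89.1 to 215 FPKM in the other 6. The mitochondrial glutamate carrier Slc25a22 was listed at 0 in 3 libraries and at 33.6 to 51.9 in 5. Mrpl53, a mitochondrial ribosomal protein, was listed at 0 in F2 SAL 1 and at 21.0 to 46.1 in the others. These 3 genes were chosen after their values were seen. Cldn5, the claudin of brain endothelium, with a mean under 1 FPKM, was listed at 0 in 7 libraries and at 5.76 FPKM in F2 SAL 3, while Cdh5, of the same cells, was at 7.24 to 9.63 (median 8.05) FPKM. What produced the zeros was not tested.

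The means above join both generations, so F2 SAL was compared once with F1 SAL across all genes. The p-values measure the spread between pups of separate litters. By limma on log2(FPKM + 0.1), 6 of 17497 genes had an adjusted p under 0.05 (0.0343%), 1 higher in F2 and 5 higher in F1, and 8.48% had an unadjusted p under 0.05. With a library left out the count was 1 to 5, being 1 without F1 SAL 2 or F1 SAL 4 and 2 without F1 SAL 3, F2 SAL 1 or F2 SAL 4, and it was 2 with the replicate number as a block. LOC108348055 (ENSRNOG00000047790) was higher in F2 by 6.56 ± 0.26 (SE) on the log2(FPKM + 0.1) scale, a size that depends on the pseudocount, with 0.0125 ± 0.0250 FPKM in F1 and 10.6 ± 2.49 in F2 (n = 4 each, limma adjusted p = 1.01e-05). LOC100911456 (ENSRNOG00000047911) was at 3.75 ± 0.413 FPKM in F1 and listed at 0 in all 4 F2 libraries (limma adjusted p = 1.65e-05). Ddx3 (ENSRNOG00000057231), described in the file as the helicase DDX3Y, and the Y-linked demethylase Kdm5d were higher in F1 (adjusted p = 0.0136 for both, limma), as were AC239701.1 and AC241873.1, named here as the rest of the 6. The Y-linked genes Ddx3, Kdm5d and Eif2s3y together with 2 further Y-linked symbols summed to 27.3 to 36.1 FPKM in the 4 F1 libraries and to 0.0300 to 2.57 in the 4 F2 libraries. Y-linked genes are carried by males, so in these 8 libraries the F2 minus F1 values cannot be told apart from a difference between female and male pups.

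Among the listed genes, 337 were tested between the generations, and 2 of them, Ddx3 and Kdm5d, had an adjusted p under 0.05 by limma. An unadjusted p under 0.05 was found for 16 (4.75%, against 8.48% of all genes tested), 3 of them higher in F2. The F1 and F2 values did not overlap for 6 of these 337, against 4.98% of all genes tested. The projection neuron markers differed by less than their spread: F2 minus F1 was 0.12 ± 0.27 for Ppp1r1b, -0.15 ± 0.29 for Penk, -0.12 ± 0.35 for Drd2 and 0.01 ± 0.31 for Adora2a on the log2(FPKM + 0.1) scale (± SE, limma adjusted p of 0.913 or more). These values do not show that the groups are equal, and they too are differences between libraries with low and with high Y-linked levels.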

How the data were processed

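RNA of the NAc of single P14 pups was sequenced, and the authors deposited 1 table for each library with FPKM per gene, estimated with StringTie against a transcriptome merged over the samples. HISAT2, SAMtools, StringTie and edgeR are named in the submitters' processing notes without versions, and the genome build is not given in the sources used here. The deposited FPKM are normalized for gene length and library size, so they keep no read counts, and no count test was run. A merged estimate can move reads between overlapping or duplicated genes, and 1776 gene IDs share 214 symbols. For each gene the mean, SD and CV over the 8 saline libraries were computed with pandas 2.3.3 and numpy 2.4.6 in Python 3.11.15, and figures were drawn with matplotlib 3.10.9. Gene classes came from the GO terms in the files. The log2(FPKM + 0.1) values of 22 gene pairs were compared within libraries by an exact two-sided sign-flip permutation test with Benjamini-Hochberg adjustment, and F2 SAL with F1 SAL by limma 3.58.1 in R 4.3.3, without a block. The latter took the 17497 genes with 0.1 FPKM or more in at least 4 libraries. Both scripts were tested on simulated data. The text names members of the lists, the 30 highest genes, the 10 highest of 3 gene classes, the 10 smallest and 10 largest CVs at 10 FPKM or more, and the smallest p-values between generations. The libraries and lists were chosen with earlier results of these data known. Alternatives were other pseudocounts, filters and scalings, the median, a replicate block and leaving out each library. The oxycodone libraries were not used here, and some genes of the lists are not reported here.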

Additional observations from a re-analysis of the deposited data

Results flagged for a closer look

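Of 55 values tested over the 8 libraries (summed levels of marker lists and the like), 3 had 1 library whose distance to the nearest other library was large against the whole range by Dixon's criterion. Chance gives this in about 1 in 20 groups. The summed choroid plexus level was 5204 FPKM in F1 SAL 1 and 5.70 to 84.2 in the other 7. The summed blood level was 61.2 FPKM in F1 SAL 4 and 9.65 to 23.8 in the others, with Hba-a2 at 56.0 FPKM there. The summed glycine receptor level was 55.3 FPKM in F1 SAL 1 and 32.2 to 42.0 in the others, with Glrb at 44.7 FPKM there.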

How the results depend on the processing

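The count of genes differing between F2 SAL and F1 SAL, 6 in the fit described, was 7 with a pseudocount of 1, 7 with no filter beyond a value above 0, 4 when genes had to reach 1 FPKM in at least 4 libraries, 6 after upper-quartile rescaling and 7 after scaling all libraries to 1 sum. Leaving out 1 library gave 1 to 5: 1 without F1 SAL 2 or F1 SAL 4, 2 without F1 SAL 3, F2 SAL 1 or F2 SAL 4, 4 without F1 SAL 1, and 5 without F2 SAL 2 or F2 SAL 3. With the replicate number as a block the count was 2. The deviations of same-numbered F1 and F2 libraries from their group means had correlations of -0.228 to -0.143. The highest with another number were 0.159 to 0.216. Whether same-numbered libraries share more than a number cannot be told from 4 such values. The cause of the lower counts was not tested. The order of paired genes passed the threshold for 21 of 22 pairs under every alternative run, and the remaining ratio, Gria2 over Gria1, was -0.08 with all libraries and ran from -0.23 without F1 SAL 1 to 0.0010 without F2 SAL 1, where its sign turned (adjusted p = 1, exact sign flips).

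The number of genes at a mean of 1 FPKM or more ran from 13684 to 13752 with a library left out and was 13574 by the median, 13718 after upper-quartile rescaling, 14705 after scaling to 1 sum and 15504 with mitochondrial genes left out first, which was added after seeing the data. The median CV ran from 15.87% to 16.97% with a library left out and was 15.8% within generations, 16.6% after upper-quartile rescaling, 18.1% after scaling to 1 sum, 19.0% without mitochondrial genes, 20.5% at 0.1 FPKM or more and 13.2% at 10 or more. Over 424 named genes, leaving out a library moved 67 of 3390 CVs by over 1.5 times, 20 of them without F1 SAL 1. No mean moved by more than 1 SD, but leaving out a library cannot move a mean that far. The stability of the means is therefore not shown by that limit. Scaling to 1 sum (as in TPM) moved 361 means by more than 1 SD and 5 CVs by over 1.5 times. It raised the sum of every library by multiplying all its values by the same factor. A mean moved in this way does not show a change of that gene relative to others. The absence of read counts limits every low value, and differences near 0.1 FPKM cannot be separated from counting error.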
